A study of Mus musculus with 16 samples.

Results

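Amino acid transporters were examined in the quadriceps of aged mice that ate control diet, ursolic acid or tomatidine. The 10 genes were Slc38a2, Slc6a9, Slc7a5, Slc3a2, Slc7a1, Slc1a4, Slc1a5, Slc7a8, Slc38a4 and Slc7a11, and every array probe that the platform's annotation assigned to one of them was taken. This gave 15 probes for the 10 genes, where the array held 16593 named genes and 25697 probes, of which 23978 carried 1 gene symbol. The mice were male C57BL/6, aged 22 months at the start of feeding and 24 months at the end. 5 of them ate standard chow alone, 6 mice ate the same chow with 0.27% (w/w) ursolic acid, a pentacyclic triterpenoid, and 5 mice ate it with 0.05% (w/w) tomatidine, a steroidal alkaloid, for 2 months. The doses of the 2 compounds differ, so a difference between them is not a comparison at matched dose. Each mouse gave 1 Illumina BeadChip array of whole quadriceps RNA, and its values are on the log2 scale. The array medians lay from 8.02 to 8.03, and the sources used here do not give the normalization method. All 7 myofibre markers measured were well above the lowest signals. The log2 of their summed signal lay between 17.40 and 17.54 in all mice. At an unadjusted p of 0.025 or less in limma, 2 of the 7 fell with ursolic acid (Myh4 by 0.26 and Ckm by 0.10 on the log2 scale). With ursolic acid 2 of 7 endothelial markers rose (Emcn, 0.30, and Egfl7, 0.21), while 0 of either list passed with tomatidine. Of 7 adipocyte markers 1 rose with ursolic acid (Adig) and 3 with tomatidine (Cidec, Adig and Adipoq). Macrophage, erythroid, fibroblast, Schwann cell and neutrophil markers did not pass against control. Among all probes on the array 2.58% rose and 2.72% fell with ursolic acid, and 2.25% rose and 3.12% fell with tomatidine. The part of these shifts in the transporter values was not tested.

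Amino acid transporters set how much of each amino acid reaches the cytoplasm of a muscle fiber. Some of them, such as Slc38a2, move small neutral amino acids inward with sodium, and others, such as the complex of Slc7a5 and Slc3a2, then exchange an internal amino acid for an external one such as leucine. Leucine is known as an activator of the growth kinase mTORC1, and several of these transporter genes are known targets of ATF4, the transcription factor that is induced when amino acids are scarce. The study reported from these same arrays that both compounds repressed Slc38a2 and Slc6a9, so these genes were not chosen independently of the data. It also reported lower levels of both mRNAs in aged muscle with Atf4 deleted. Replicates are separate mice, and p values measure the spread between them.

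ATF4 binds, with partner proteins, to elements that contain TGATGNAA. The 250 bases before each annotated start site were searched for these letters on both strands. 8 of the 10 genes were matched in the RefSeq promoter table (GRCm38.p6), with 13 start sites. A match stood before 1 of the 13, that of Slc7a11, against 3.45% of the 32851 windows in the table. The Slc7a11 window lies at chr3:50443614-50443863, minus strand, and is shown with its 2 matches in capitals because it is the only one with the letters. The matches run from 66 to 59 and from 47 to 40 bases before the start site, on opposite strands, and do not overlap. The window of Slc38a2, at chr15:96699729-96699978, minus strand, is shown beside it because the study named this gene, and it holds no match.
Slc7a11: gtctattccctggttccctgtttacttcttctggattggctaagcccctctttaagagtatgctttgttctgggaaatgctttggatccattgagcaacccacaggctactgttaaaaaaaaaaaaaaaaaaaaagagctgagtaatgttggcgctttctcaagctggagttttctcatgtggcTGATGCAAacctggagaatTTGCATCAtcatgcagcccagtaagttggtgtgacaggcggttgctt
Slc38a2: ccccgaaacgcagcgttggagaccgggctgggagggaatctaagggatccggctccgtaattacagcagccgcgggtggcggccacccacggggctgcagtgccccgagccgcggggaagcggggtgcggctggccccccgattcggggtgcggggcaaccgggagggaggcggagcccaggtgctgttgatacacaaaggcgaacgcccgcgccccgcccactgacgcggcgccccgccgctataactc
A match is a description of the letters only, and a window without one says nothing about elements elsewhere in the gene.

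The counts of transporter probes that passed were close to the shares over all probes, as far as 15 probes can show. 10 of the 15, and every probe of 6 of the 10 genes, lay close to the lowest signals. There the lack of a call does not show that the mRNA was unchanged. A probe is said to rise, fall or differ where limma gave an unadjusted p of 0.025 or less, the threshold of the study. With ursolic acid 0 of the 15 probes rose and 0 fell, while 2.58% of all probes on the array rose, 2.72% fell and 5.30% passed in either direction. With tomatidine 0 rose and 1 fell, that of Slc6a9, while 2.25% of all probes rose, 3.12% fell and 5.37% passed in either direction. Between the compounds 1 of the 15 differed, that of Slc7a8, which was lower with ursolic acid than with tomatidine, against 1.44% of all probes that were lower, 1.50% that were higher and 2.94% that differed in either direction. At an adjusted p of 0.1 or less 0 of the 15 passed in any of the 3 comparisons, while 2 (0.00778%), 25 (0.0973%) and 3 (0.0117%) of all probes did. These counts over all probes turned on single mice, and were 50 with ursolic acid without control mouse 5, and 168 and 0 with tomatidine without tomatidine mouse 1 and mouse 3. The medians of the 15 changes were -0.0026 with ursolic acid and -0.00023 with tomatidine, and those of all probes were -4.2e-05 and -0.00059. Ursolic acid and tomatidine were compared with the same 5 control mice, so their values for a gene are not independent.

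**Figure D1:**
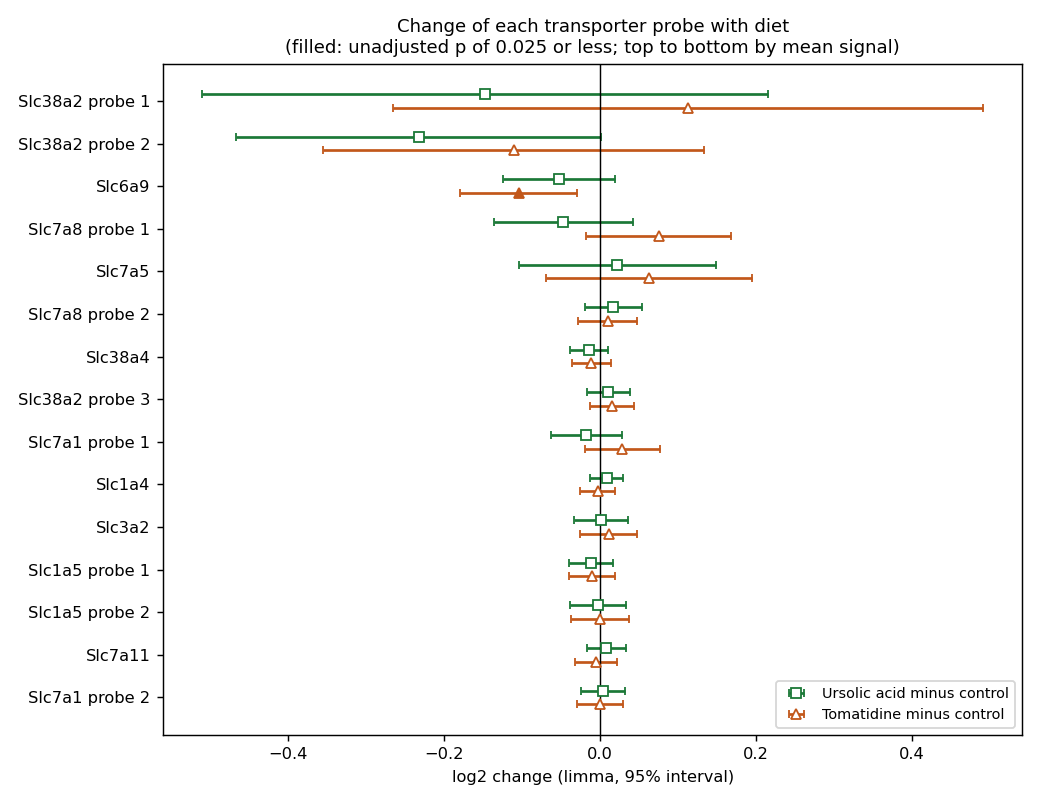
Log2 change of each of the 15 transporter probes with ursolic acid (squares) and tomatidine (triangles) against control, with the 95% interval from limma, ordered from the brightest probe at the top. The single filled symbol is Slc6a9 with tomatidine, and the widest intervals are those of the 2 brighter Slc38a2 probes.

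Slc38a2 encodes SNAT2, a sodium-coupled carrier of small neutral amino acids whose mRNA is known to be induced when amino acids are scarce. It was measured by 3 probes, which did not give the same picture. On the brightest probe (ILMN_1244123) the control mice measured 11.13, 10.91, 11.04, 10.87 and 11.21, the mice on ursolic acid ranged from 10.70 over a median of 10.86 to 11.18, and the mice on tomatidine measured 11.38, 11.12, 11.73, 11.09 and 10.41. The 3 groups overlapped, and the tomatidine mice held both the highest and the lowest value of all 16 mice. Control mice averaged 11.03 ± 0.14 (SD, n = 5), ursolic acid mice 10.88 ± 0.17 (SD, n = 6) and tomatidine mice 11.14 ± 0.48 (SD, n = 5). The log2 change was -0.15 (SE 0.17, limma adjusted p = 0.866) with ursolic acid and 0.11 (SE 0.18, adjusted p = 0.913) with tomatidine. The latter rested on tomatidine mouse 3, without which it was -0.03. The difference between the compounds, ursolic acid less tomatidine, was -0.26 (95% interval -0.62 to 0.10) and did not pass. Without tomatidine mouse 5 it was -0.44 and passed the unadjusted threshold (limma adjusted p = 0.728).

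The second Slc38a2 probe (ILMN_2955671) gave the clearest separation from control among the probes of this gene. Control mice measured 8.72, 8.90, 8.99, 8.65 and 8.61, mice on ursolic acid ranged from 8.44 over a median of 8.55 to 8.61, and mice on tomatidine measured 8.56, 8.95, 9.01, 8.41 and 8.38. All 6 mice on ursolic acid lay below the control mean and 5 of them below every control mouse, while the tomatidine mice lay on both sides. The means were 8.77 ± 0.16 (SD, n = 5), 8.54 ± 0.06 (SD, n = 6) and 8.66 ± 0.30 (SD, n = 5). The log2 change with ursolic acid was -0.23 (SE 0.11, 95% interval -0.47 to 0.0015, limma adjusted p = 0.561), which did not pass. It passed in limma with only these 2 groups, where the wide tomatidine group does not enter the estimate of the spread (adjusted p = 0.285), and by the test that the methods name (adjusted p = 0.424). With the background subtracted, the size of the change was -0.52, which did not pass (limma adjusted p = 0.536). With tomatidine the change was -0.11 (SE 0.11, limma adjusted p = 0.844). The third probe of Slc38a2 lay between 8.02 and 8.08 in all mice, close to the lowest signals of the arrays.

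**Figure D2:**
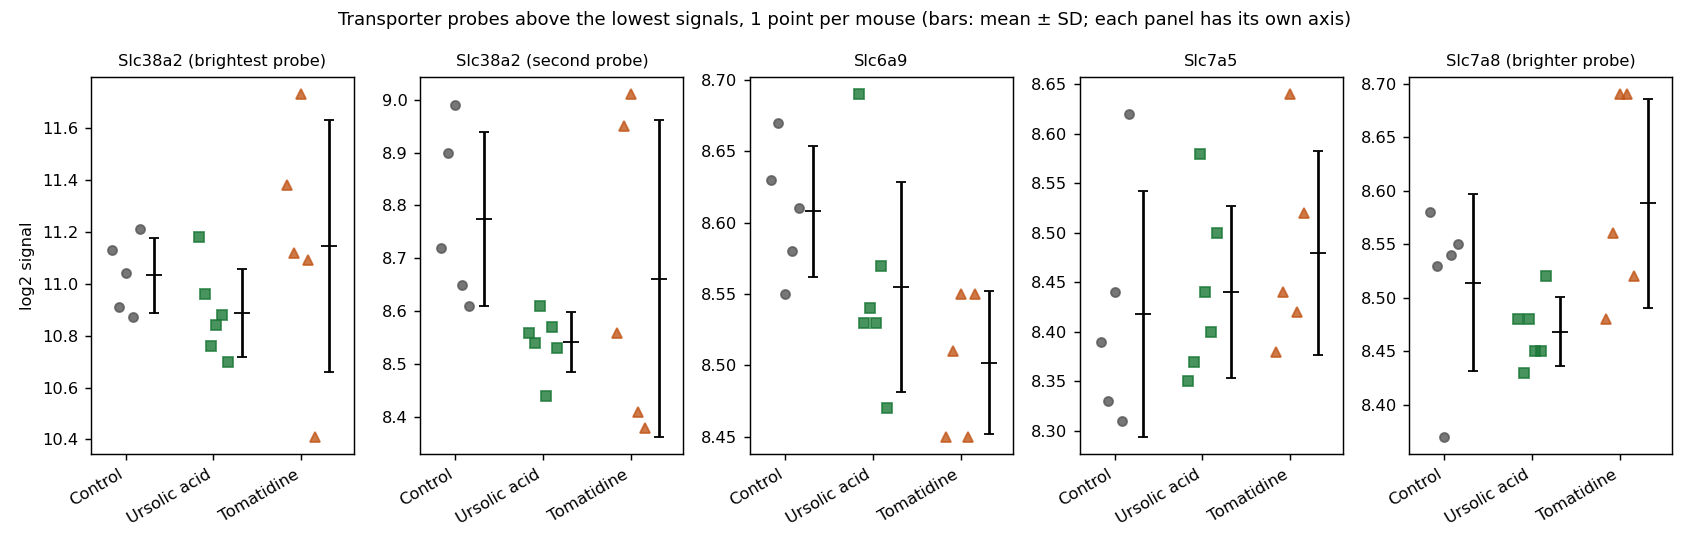
Log2 signal per mouse for the 5 transporter probes above the lowest signals, by diet, with the mean and SD of each diet as bars. Tomatidine mice spread from 10.41 to 11.73 on the brightest Slc38a2 probe, and on the second one the mice on ursolic acid lie within 8.44 to 8.61.

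Slc6a9, which encodes the glycine transporter GLYT1, was the 1 member to fall against control. Its signal in control mice was 8.63, 8.67, 8.55, 8.58 and 8.61, and with tomatidine it was 8.45, 8.51, 8.55, 8.45 and 8.55. 4 of the 5 tomatidine mice lay below every control mouse, and all 5 lay below the control mean. With ursolic acid it ranged from 8.47 over a median of 8.54 to 8.69, and mouse 1 of that group held the highest value of all. Control mice averaged 8.61 ± 0.05 (SD, n = 5) and ursolic acid mice 8.55 ± 0.07 (SD, n = 6), and the tomatidine mice had a median of 8.51 (SD 0.05, n = 5). Slc6a9 fell by 0.10 on the log2 scale with tomatidine (SE 0.04, 95% interval -0.18 to -0.03, limma adjusted p = 0.376), a signal that dropped by 6.96%. The change with ursolic acid was -0.05 (SE 0.03, limma adjusted p = 0.705) with all mice, and without ursolic acid mouse 1 it was -0.08 (adjusted p = 0.368), past the unadjusted threshold. The difference between the compounds was 0.05 (95% interval -0.02 to 0.12), and they were not shown to differ. The fall with tomatidine missed the threshold once control mouse 2 was removed (-0.09, limma adjusted p = 0.522). Removing tomatidine mouse 1 (-0.09, adjusted p = 0.377), mouse 4 (-0.09, adjusted p = 0.567) or mice 3 and 4 together (-0.10, adjusted p = 0.673) did the same. With the background subtracted the change was -0.26 and passed (limma adjusted p = 0.513). GLYT1 is also known from red blood cell precursors. All 3 erythroid markers measured had a change above 0 with tomatidine (Hba-a1 0.65, Alas2 0.39 and Slc4a1 0.20), though 0 passed. The same 3 were above 0 with ursolic acid (0.56, 0.19 and 0.02), where 0 passed either. The log2 of their summed signal ranged from 12.71 over a median of 13.41 to 13.91 in control mice. It ranged from 13.24 over a median of 13.92 to 14.97 with tomatidine, and from 13.69 over 13.83 to 14.18 with ursolic acid. Its part in the Slc6a9 values was not tested.

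Slc7a8 and Slc7a5 encode LAT2 and LAT1, exchangers of large neutral amino acids that each pair with the heavy chain encoded by Slc3a2. On the brighter Slc7a8 probe (ILMN_2598877) the control mice measured 8.58, 8.53, 8.37, 8.54 and 8.55, the mice on ursolic acid ranged from 8.43 over a median of 8.46 to 8.52, and the mice on tomatidine measured 8.48, 8.56, 8.69, 8.69 and 8.52. 5 of the 6 mice on ursolic acid lay below every tomatidine mouse, and both of these groups overlapped the control mice. Neither diet passed against control, with a change of -0.05 (SE 0.04, limma adjusted p = 0.816) with ursolic acid and 0.08 (SE 0.04, adjusted p = 0.646) with tomatidine. The difference between the compounds was -0.12 (SE 0.04, 95% interval -0.21 to -0.03, limma adjusted p = 0.780), and it was -0.31 with the background subtracted. The difference turned on tomatidine mice 3 and 4, the 2 highest. It no longer passed without mouse 3 (-0.10, limma adjusted p = 0.989), without mouse 4 (-0.10, adjusted p = 0.896) or without both (-0.05, adjusted p = 0.998). These same 2 mice had the highest scores on the leading principal component of all probes, 7.11 and 14.6, while all other mice lay between -6.34 and 5.84. Some markers of other cells also differed between the compounds. 2 of 7 adipocyte markers (Adipoq and Cidec), 2 of 4 fibroblast markers (Pdgfra and Col3a1) and 1 of 4 macrophage markers (Cd163) were lower with ursolic acid than with tomatidine and 0 were higher. Among all probes 1.44% were lower and 1.50% higher. Col3a1 was close to the lowest signals (mean 8.07). The other markers of these lists did not pass, among them Lep (0.09) and Dcn (-0.02). The log2 of the summed adipocyte signal ranged from 11.11 to 11.64 with ursolic acid and from 11.36 to 11.69 with tomatidine. The log2 of the summed fibroblast signal ranged from 13.03 to 13.28 with ursolic acid and from 13.03 to 13.42 with tomatidine. That of the summed macrophage signal ranged from 10.18 to 10.39 and from 10.21 to 10.71. Their part in the Slc7a8 difference was not tested. The other Slc7a8 probe, near the lowest signals, gave 0.0071 for the same difference (95% interval -0.03 to 0.04).

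Slc7a5 itself was not distinguishable between the diets. Control mice measured 8.39, 8.33, 8.44, 8.31 and 8.62, mice on ursolic acid ranged from 8.35 over a median of 8.42 to 8.58, and mice on tomatidine measured 8.38, 8.44, 8.64, 8.42 and 8.52. The 3 groups overlapped over most of their ranges. The changes were 0.02 (95% interval -0.10 to 0.15, limma adjusted p = 0.952) with ursolic acid and 0.06 (95% interval -0.07 to 0.19, adjusted p = 0.833) with tomatidine.

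The remaining 10 probes covered 8 genes and lay close to the lowest signals, with means over the 16 mice from 7.96 to 8.07 where the lowest signal of an array was 7.87 to 7.90 and the median probe 8.02 to 8.03. 6 of the 10 transporters had no probe above this band. Slc3a2 encodes the heavy chain that carries LAT1 and LAT2 to the plasma membrane, and Slc7a1 a carrier of arginine and lysine. Slc1a4 and Slc1a5 encode exchangers of small neutral amino acids, the latter known for glutamine. Slc38a4 is a relative of Slc38a2, and Slc7a11 imports cystine in exchange for glutamate. Slc3a2, for example, measured 7.97 to 8.01 in control mice, 7.97 to 8.02 with ursolic acid and 7.97 to 8.07 with tomatidine. In single mice these 10 probes ranged from 7.92 to 8.11, and their changes over the 3 comparisons ranged from -0.05 to 0.03 with SE from 0.00997 to 0.0224. None of them passed in the 3 comparisons, and the one nearest the threshold was the brighter Slc7a1 probe between the compounds (-0.05, limma adjusted p = 0.860). No detection call was used here, so a signal in this band does not show whether the mRNA was absent, scarce or poorly caught by the probe.

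**Figure D3:**
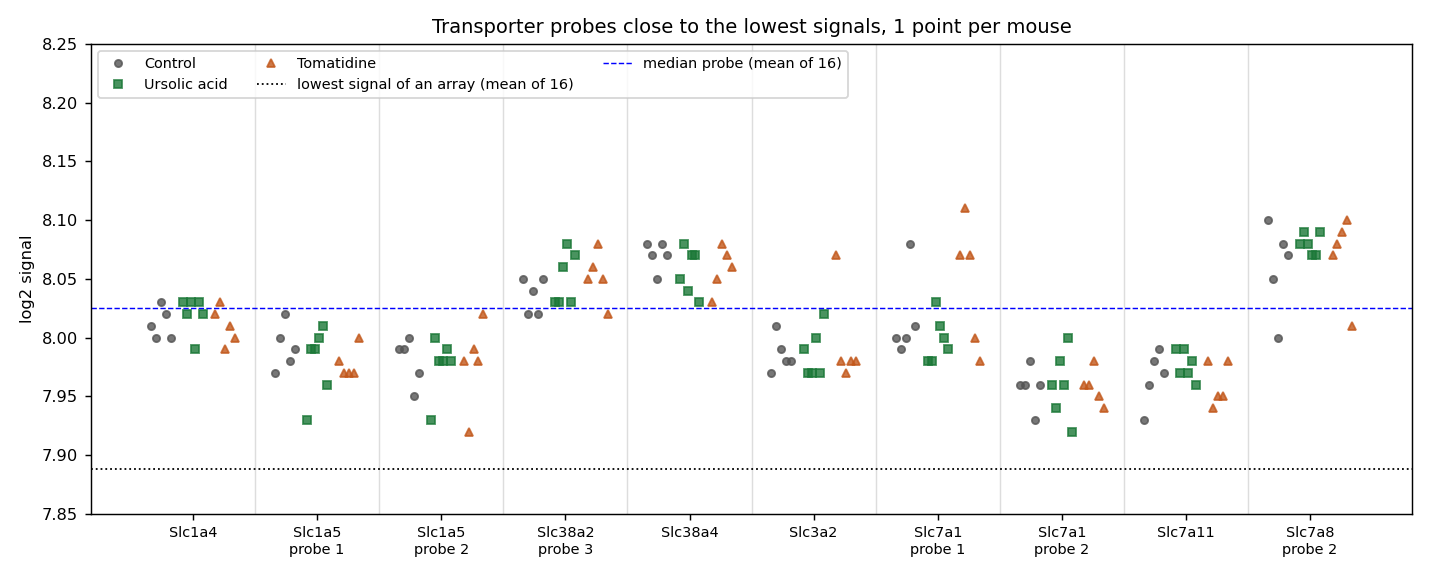
Log2 signal per mouse for the 10 transporter probes close to the lowest signals, by diet, with the mean lowest signal of an array (dotted) and the median probe (dashed). All points lie between 7.92 and 8.11, and the 3 diets overlap on every probe.

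The variation of Slc38a2 and Slc6a9 among the mice was compared with that of 5621 other probes with a gene symbol and a mean signal of 8.5 or more, as deviations from the mean of each diet over the 16 mice. The 3 probes most like the brightest Slc38a2 probe were those of Sdc4 (Pearson r = 0.84, Spearman rho = 0.79), Tle4 (0.82 and 0.51) and Dnajc3 (0.82 and 0.80). Those most like Slc6a9 were 1 probe of Slc25a38, which encodes a mitochondrial glycine carrier (r = 0.80, rho = 0.83), Ube3c (0.78 and 0.60) and Ubb-ps (0.72 and 0.68). The brightest probe of Slc25a38, with a mean signal of 10.09, was not among these 3. The correlations printed are the highest of many values and are given as a description.

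Transporters outside the 10 genes were counted in the same way. Of 38 measured amino acid transporters of the plasma membrane or lysosome, 0 rose and 1 fell with ursolic acid. With tomatidine 2 rose and 0 fell. Over all probes 2.58% rose and 2.72% fell with ursolic acid, and 2.25% rose and 3.12% fell with tomatidine. Only 4 of the 38 had a mean signal of 8.5 or more, so the counts say little about the dimmer ones. The fall was in Slc38a8 (-0.04), which is close to the lowest signals and did not pass with the mouse number as a block (-0.03). The rises were in Slc1a3, a glutamate and aspartate transporter (0.34, SE 0.12, limma adjusted p = 0.387), and in Slc7a10, a small neutral amino acid exchanger (0.04, SE 0.01, limma adjusted p = 0.310), whose signal is also close to the lowest. Slc1a3 missed the threshold by the test that the methods name and by its form with unequal variances, and with any 1 of control mice 3 and 4 (0.32 and 0.31) and tomatidine mice 3, 4 and 5 (0.30, 0.28 and 0.28) removed. With tomatidine mice 3 and 4 both removed it was 0.21 (limma adjusted p = 0.808). Slc7a10 is also known as a gene of white adipocytes. Of 7 adipocyte markers measured, 3 rose with tomatidine (Cidec, Adig and Adipoq) and 0 fell. Lep (-0.20) and Retn (-0.02) had changes below 0 with tomatidine that did not pass. With ursolic acid 1 of the 7 rose, Adig (0.32), while Slc7a10 gave 0.0085 and did not pass. The log2 of the summed signal of the 7 ranged from 11.17 to 11.69 in control mice. It ranged from 11.36 to 11.69 with tomatidine and from 11.11 to 11.64 with ursolic acid. 3 of the 7 (Plin1, Fabp4 and Retn) were close to the lowest signals. In a bulk sample more cells of a type and more RNA per cell cannot be told apart. Of 9 mitochondrial amino acid carriers, 5 had a mean signal of 8.5 or more. Slc25a29, a carrier of basic amino acids, was the 1 of the 9 that rose with ursolic acid (0.07, SE 0.02, limma adjusted p = 0.341), and 0 fell. Its mean signal was 8.23, so it is not among those 5. With tomatidine Sfxn1, a mitochondrial serine carrier, rose (0.25, SE 0.07, limma adjusted p = 0.287) and Slc25a12, an aspartate and glutamate carrier, fell by 0.13 (SE 0.05, limma adjusted p = 0.438). Without tomatidine mice 3 and 4 Sfxn1 was 0.17 (limma adjusted p = 0.708) and Slc25a12 was -0.08 (adjusted p = 0.843), and neither passed. Sfxn1 also missed the threshold by the test that the methods name and by its form with unequal variances. Slc25a12 kept its call under 3 of the 11 settings that used another processing or test or left out both of these mice. It also missed the threshold without any 1 of control mice 1, 2 and 3, tomatidine mice 1, 2, 3 and 4 and ursolic acid mouse 5, with changes from -0.14 to -0.11.

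The genes that share regulation or function with the transporters were set beside them. Over all probes 2.58% rose and 2.72% fell with ursolic acid, and 2.25% rose and 3.12% fell with tomatidine. The counts below were not tested against these shares. Of 36 other ATF4 targets, 19 had a mean signal of 8.5 or more. 1 of the 36 rose and 3 fell with ursolic acid, and 0 rose and 2 fell with tomatidine. Their median change was -0.02 with ursolic acid and -0.01 with tomatidine. The falls with ursolic acid were in Eif4ebp1, an inhibitor of translation initiation (-0.44, SE 0.09, limma adjusted p = 0.171), and in Lars1 (-0.16) and Nars1 (-0.20), which charge tRNAs with leucine and asparagine. Lars1 and Nars1 fell with tomatidine too (-0.18 and -0.20), while Eif4ebp1 gave -0.20 (limma adjusted p = 0.529), which did not pass. These 3 genes had been named by the study on these arrays. For Eif4ebp1 the study also reported lower mRNA by qPCR and less of its protein with both compounds. The rise was in Atf5, a transcription factor related to ATF4 (0.25, SE 0.09, limma adjusted p = 0.407), which did not pass if any 1 of control mice 1, 4 and 5 and ursolic acid mice 4 and 6 was left out (0.19 to 0.24), by the test that the methods name, by its form with unequal variances or with the mouse number as a block. The Atf4 probe gave -0.07 (95% interval -0.21 to 0.07) with ursolic acid and -0.0011 (95% interval -0.15 to 0.15) with tomatidine. Of 30 genes through which amino acids act on mTORC1, 17 had a mean signal of 8.5 or more. 1 of the 30 rose with ursolic acid, Rragc, a small GTPase (0.15, SE 0.05, limma adjusted p = 0.344), and 0 passed with tomatidine. Rragc did not pass with the background subtracted (0.18, limma adjusted p = 0.590). Of 15 genes of branched-chain amino acid breakdown, 11 had a mean signal of 8.5 or more. 2 of the 15 rose with ursolic acid and 1 with tomatidine, and 0 fell. They were Hibadh, an enzyme of valine breakdown (0.19, SE 0.04, limma adjusted p = 0.195) and Ppm1k, the phosphatase that activates the branched-chain ketoacid dehydrogenase (0.17 with ursolic acid and 0.15 with tomatidine). The rise of Ppm1k with ursolic acid did not pass without control mouse 5 (0.14), and that with tomatidine did not pass without any 1 of control mice 1, 3, 4 and 5 and tomatidine mice 1, 2 and 5 (0.12 to 0.15). The latter also did not pass after quantile normalization, with the background subtracted, by the test that the methods name or by its form with unequal variances.

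**Figure D4:**
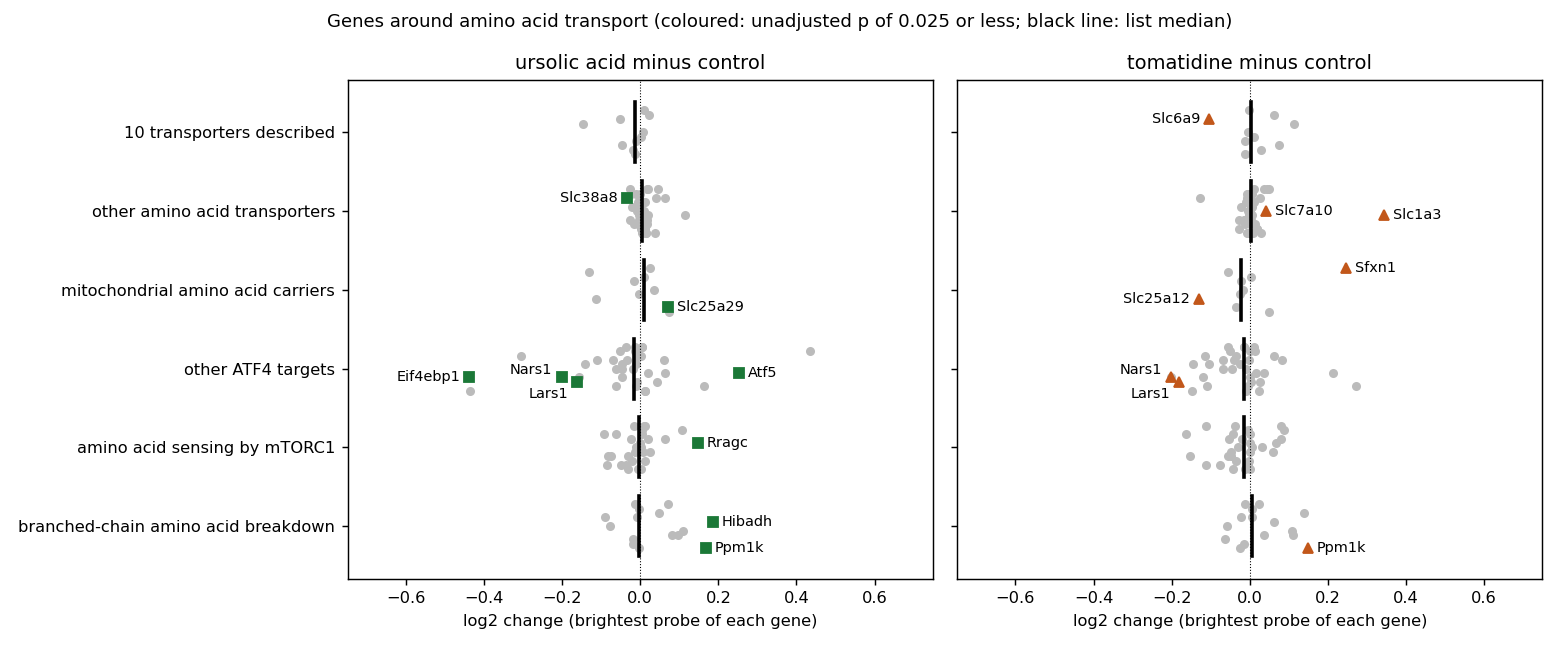
Log2 change of the brightest probe of each gene in 6 lists, with ursolic acid (left) and tomatidine (right) against control; colored symbols passed an unadjusted p of 0.025 and black lines are list medians. The medians of all lists lie within 0.03 of 0, and Slc6a9 with tomatidine is the only colored symbol among the 10 transporters.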

How the data were processed

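Whole quadriceps RNA of 16 mice (control n = 5, ursolic acid n = 6, tomatidine n = 5) was hybridised to 1-colour Illumina Mouse Ref-8 BeadChips, 1 array per mouse, read on an iScan and extracted with BeadStudio by the authors. The deposited values are log2 signals, with array medians from 8.02 to 8.03. For background correction, the normalization method, slide and scan date the sources used here give nothing. No detection p was used. The number of arrays limits the precision, and 76.8% of probes had a mean log2 signal under 8.5. Groups were taken from the labels, and 0 columns belonged to no sample.

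The values were fitted with limma 3.58.1 (R 4.3.3) with 1 mean per diet over all 25697 probes and 16 arrays (13 residual degrees of freedom). P values were two-sided, with Benjamini-Hochberg adjustment over all probes, and calls were made at an unadjusted p of 0.025 or an adjusted p of 0.1. Tables and figures were made with Python 3.11.15, pandas 2.3.3, numpy 2.4.6 and matplotlib 3.10.9. The fit was tested on simulated data. Probes were named through the platform annotation, which gave 1 symbol for 23978 probes and none for 1719. The genes of the lists were matched through RefSeq gene IDs (193 of 194, of which 175 were measured), and the probe with the highest mean stood for a gene of a list. All probes of the 10 transporters are reported, with the genes of the other lists that passed an unadjusted p of 0.025 against control, Atf4, and the 3 probes most like Slc38a2 and Slc6a9. The members and lists were chosen with earlier results of these data known. The alternatives were 27 settings, comprising other normalizations, background subtraction (the 1st percentile of each array, offset 16), a filter on dim probes, other tests and weights, the mouse number as a block, and mice left out. Mouse numbers name separate mice and were not used as a pairing.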

Additional observations from a re-analysis of the deposited data

Results flagged for a closer look

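In 45 groups of mice, 1 per probe and diet, 6 held a mouse far from the others by Dixon's criterion, which marks about 1 group in 20 by chance. On the brighter Slc7a8 probe control mouse 3 was the lowest of its group at 8.37, with the next mouse at 8.53. The other 5 were on probes close to the lowest signals. Slc3a2 was highest in tomatidine mouse 1 at 8.07 (next 7.98), and Slc7a1 in control mouse 4 at 8.08 (next 8.01). Slc1a4 was lowest in ursolic acid mouse 4 at 7.99 (next 8.02), Slc1a5 in ursolic acid mouse 1 at 7.93 (next 7.98), and the dimmer Slc7a8 probe in tomatidine mouse 5 at 8.01 (next 8.07). The difference of the brighter Slc7a8 probe between the 2 compounds, -0.12 on the log2 scale, was the 1 such difference among the 15 probes to pass an unadjusted p of 0.025 in limma. All 6 mice on ursolic acid lay below the tomatidine mean.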

How the results depend on the processing

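The count of transporter probes that rose was 0 in all 3 comparisons under all 27 settings. The count that fell with ursolic acid was 1 in place of 0 with only the 2 groups compared, by the methods' t-test and with the replicate block (Slc38a2, second probe, each time), and 0 to 1 with single mice left out. The count that fell with tomatidine was 0 in place of 1 without tomatidine mice 3 and 4, and 0 to 1 with single mice left out. The count lower with ursolic acid than with tomatidine was 2 in place of 1 with an intensity trend and robust estimates, 0 by the t-test with unequal variances, 0 without tomatidine mice 3 and 4, and 0 to 3 with single mice left out. Slc7a5 with ursolic acid ranged from -0.0055 to 0.0725 with single mice left out. The brightest Slc38a2 probe with tomatidine was -0.0643 without tomatidine mice 3 and 4 and ranged from -0.0326 to 0.2972 with single mice left out. The cause was not tested. The labels do not say that a mouse number marks anything shared. Deviations of same-numbered mice correlated from -0.238 to 0.0926 between control and a compound. Between the compounds they correlated from -0.0974 to 0.324, above 0.1 in 4 of 5 pairs. Correlations between differently numbered mice were not computed, so these values do not show whether a number marks anything shared. The numbers were not used as a pairing. The replicate block gave -0.23 for the second Slc38a2 probe (limma adjusted p = 0.508). Over all probes, adjusted calls went from 2 to 17 with ursolic acid and from 25 to 102 with tomatidine where only probes of mean 8.5 or more were tested, and to 0 and 1 with the background subtracted. With single mice left out they ranged from 0 to 50 with ursolic acid (50 without control mouse 5), from 0 to 168 with tomatidine (0 without tomatidine mouse 3, 168 without tomatidine mouse 1) and from 0 to 5 between the compounds. Unadjusted calls with tomatidine went from 1380 to 870 by the t-test with unequal variances. Signals close to the lowest limit 10 of the 15 probes, where subtracting the background raised the largest change to 0.13, 0.20 and 0.33 in the 3 comparisons.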
